A study of Mus musculus with 24 samples.

Results

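The comparison described here sets Xinβ knockout hearts against wild-type hearts when both had received an activated form of YAP. It was made up of every heart labelled as injected with aYAP(S127A), 4 with the genotype label XinBeta KO (KO/aYAP) and 4 labelled Wildtype (WT/aYAP), 8 of the 24 mouse heart RNA-seq libraries of the study. The other libraries were 8 hearts injected with GFP (KO/GFP and WT/GFP, 4 each) and 8 uninjected hearts (4 KO and 4 WT). The labels give the tissue as heart apex and the study's methods as ventricles, taken at postnatal day 7.5, and the injected pups had received AAV9, a virus that carries a gene into cells without replicating, at postnatal day 1. The KO allele was a germline deletion made in R1 embryonic stem cells and crossed to C57BL/6, so every cell type of the KO hearts lacked the intact gene from conception. The viral YAP was driven by the cardiac troponin T promoter, which restricts it to cardiomyocytes, and both arms of this comparison carried it. The contrast therefore asks how hearts without Xinβ differed from hearts with it once both had received active YAP.

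Xinβ is the protein product of Xirp2, an actin-binding repeat protein of the intercalated disc, the junction that couples neighbouring cardiomyocytes. YAP is the transcriptional co-activator at the end of the Hippo kinase cascade: the LATS kinases phosphorylate it and keep it in the cytoplasm, and in the nucleus it works with TEAD factors to switch on growth and cell-cycle genes. The S127A substitution removes a phosphorylation site through which YAP is held in the cytoplasm, and neonatal cardiomyocytes are known to keep dividing for longer when it is expressed.

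The reads on genes, recovered from the deposited values and so derived from transcript coverage, summed to 16645760 to 17566537 in the KO/aYAP libraries. In the WT/aYAP libraries they summed to 15015038 to 17942546. Values are CPM, reads per gene as a share of the scaled size of the library, and fold changes are differences of log2(CPM + 1), KO minus WT, which understate the change of genes near 1 CPM. A gene was called when its adjusted p was under 0.05 in limma, a linear model with shared variance estimates, fitted to all 16 injected libraries with Benjamini-Hochberg adjustment over 14597 genes. The paper states that controls were littermates. Nothing in the sources says which hearts shared a litter, so the hearts were not paired and the p-values measure the spread between these hearts. The X-inactivation transcript Xist and the Y-linked Ddx3y separated the KO/aYAP hearts cleanly: Xist was at 1.64, 1.99, 832 and 640 CPM and Ddx3y at 88.9, 86.4, 0.915 and 0.229. All 4 WT/aYAP libraries held both, with Xist at 25.6, 69.5, 747 and 195.7 CPM and Ddx3y at 60.7, 61.4, 8.61 and 49.7. Replicates 3 and 4 of WT/aYAP carried the most Xist, and without them, with 2 WT hearts left, 1 gene was called, Xirp2. The differences of the other 5 genes called with all 8 hearts were then -0.87 for Clca3a1, -0.93 for Myl4, -0.84 for mt-Tw, -0.87 for Scd2 and 0.58 for Col5a3. The paper describes its RNA-seq groups as balanced between males and females, but in WT/aYAP only replicate 3 had Ddx3y below 49.7 CPM. Whether tissue of more than 1 heart entered these libraries was not given.

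Xirp2, on chromosome 2 (chr2:67446002-67526614, GRCm38, plus strand), was measured first because it is the deleted gene. It was at 0.789, 0.117, 0.972 and 0 CPM in the 4 KO/aYAP hearts and at 93.8, 90.5, 81.6 and 56.0 in the 4 WT/aYAP hearts. The lowest WT heart was far above the highest KO heart. The difference was -5.83 on the log2 scale (SE 0.22, adjusted p = 9.45e-11), and the GFP-injected hearts gave -6.48. Its relative Xirp1, which encodes Xinα, was at 213 ± 17.8 CPM in KO/aYAP and 183 ± 29.5 in WT/aYAP (SD, n = 4 each, adjusted p = 0.518). The mouse Yap1 gene was at 87.2 ± 4.58 and 84.5 ± 2.84 CPM (adjusted p = 0.836). In KO/GFP and WT/GFP hearts, which received no viral YAP, it was at 89.0 ± 5.07 and 87.7 ± 2.76 CPM. The paper describes the viral YAP as the human form, and whether any of its reads enter the mouse Yap1 value was not tested.

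With active YAP in both arms, 6 of 14597 genes were called, or 0.0411%, 5 of them lower in KO hearts (0.0343%) and 1 higher (0.00685%). They were Xirp2, the chloride channel accessory gene Clca3a1, the atrial and fetal myosin light chain Myl4, the mitochondrial tRNA gene mt-Tw, the fatty acid desaturase gene Scd2 and the collagen gene Col5a3. The same contrast with GFP in both arms called 1993 genes (13.7%), 939 higher and 1054 lower in KO. The interaction of genotype with injection, which tests the difference between these contrasts gene by gene, called 1104 genes (7.56%), and 631 to 1049 when 1 aYAP heart was left out, fewest without WT replicate 4. Before any adjustment, 1627 genes (11.1%) had a p under 0.05 in the aYAP contrast, 875 higher and 752 lower. The 4 KO/aYAP values lay entirely on 1 side of the 4 WT/aYAP values for 1347 genes (9.23%), 658 higher and 689 lower.

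The differences themselves were also smaller with YAP in both arms. The middle range of log2 fold changes, from the lower to the upper quartile of all tested genes, ran from -0.14 to 0.14 with aYAP and from -0.21 to 0.18 with GFP. With aYAP 65 genes differed by 1 or more on the log2 scale, against 506 with GFP, and 681 against 2285 differed by 0.5 or more. The KO/GFP hearts varied more among themselves than the other injected groups, with a fitted precision weight of 0.617 against 1.19 for KO/aYAP and 1.23 for WT/aYAP.

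**Figure D1:**
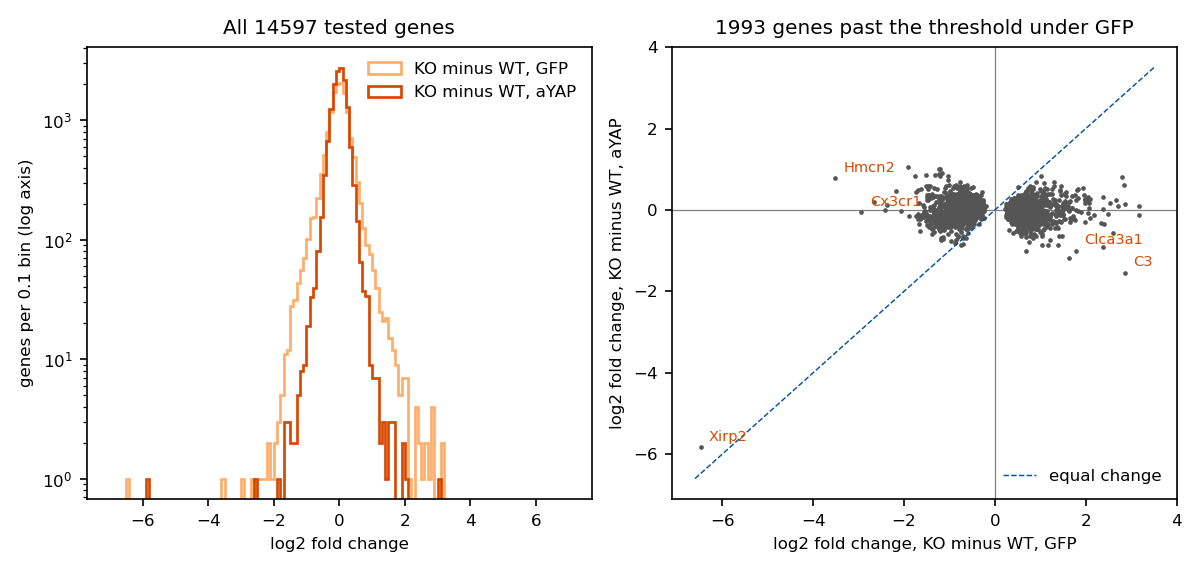
Left, the number of tested genes at each log2 fold change between KO and WT hearts, with aYAP in both arms and with GFP in both arms. Right, each point is one of the 1993 genes called in the GFP contrast, with its log2 fold change under GFP on the x axis and under aYAP on the y axis. The aYAP distribution is narrower, with 65 genes at a size of at least 1 against 506, and 116 of the 1993 points reach a size of 0.5 on the y axis.

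Pairwise correlations between the libraries ran from 0.971 to 0.985. On the first principal component, which held 25.3% of the variance, the KO/aYAP hearts were at 22.8, 18.7, 3.34 and 13.6 and the WT/aYAP hearts at -6.61, -14.5, -10.9 and -26.5. The groups did not overlap on it (difference of means 29.2, exact two-sided permutation test, p = 0.0286, the smallest value that 70 divisions of 8 hearts allow). Without WT replicate 2 or WT replicate 4 the test no longer passed (exact permutation test, p = 0.0571 for each). The second component held 17.8% (exact permutation test, p = 0.657) and divided the KO hearts, with replicates 1 and 2 at -17.0 and -14.6 and replicates 3 and 4 at 17.5 and 24.0, the same division as Xist and Ddx3y gave. The animal numbers in the sample titles divide the KO hearts in the same way, so sex and numbering cannot be told apart here.

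**Figure D2:**
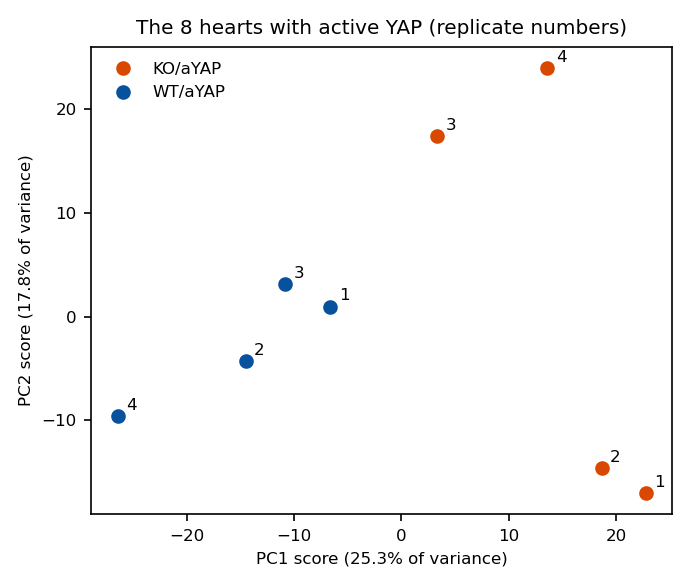
The 8 aYAP-injected hearts on the first and second principal components of log2(CPM + 1) over the tested genes, with the share of variance on each axis and the replicate number beside each point. KO hearts lie between 3.34 and 22.8 on the first component and WT hearts between -26.5 and -6.61.

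Clca3a1, on chromosome 3 (chr3:144729677-144760977, minus strand), belongs to a family of secreted proteins that modulate chloride channels. It was at 8.68, 10.5, 8.92 and 9.38 CPM in KO/aYAP hearts and at 16.2, 19.8, 21.4 and 21.7 in WT/aYAP hearts. Every KO heart was below every WT heart. The gene fell by 1.00 on the log2 scale (SE 0.13, adjusted p = 0.00614). Its direction was the opposite in the GFP contrast, where KO hearts held 73.2, 49.8, 64.4 and 68.0 CPM and WT hearts 18.2, 20.1, 15.2 and 17.3, a difference of 1.79, and the interaction was called (adjusted p = 7.07e-07). In uninjected hearts it was also higher in KO, by 1.51. Among the 4 injected groups, KO/GFP was thus the high group, and KO/aYAP the low one.

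Myl4, on chromosome 11 (chr11:104550663-104595753, plus strand), encodes the essential light chain used by atrial muscle and by the fetal ventricle. It was at 6.60, 6.84, 9.09 and 8.12 CPM in KO/aYAP hearts and at 14.5, 16.3, 16.7 and 18.0 in WT/aYAP hearts. The groups did not overlap, and the gene fell by 1.01 (SE 0.15, adjusted p = 0.0182). In GFP-injected hearts it was at 8.35 ± 1.76 CPM in KO and 8.30 ± 1.20 in WT (SD, n = 4 each), so the WT/aYAP hearts held the higher level of the 4 groups (interaction adjusted p = 0.01).

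mt-Tw is the mitochondrial gene for the tRNA that carries tryptophan. It spans 67 bases of the mitochondrial genome (chrM:4950-5016, GRCm38, plus strand), begins with 2 bases shared with mt-Nd2, and is shorter than the 150-base reads, so reads over it can also come from longer precursor transcripts that run through it. Its sequence is shown because it is the shortest of the 6 called genes, and its count was derived from read coverage over these bases alone. Capitals mark the anticodon, at positions 32 to 34.

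mt-Tw: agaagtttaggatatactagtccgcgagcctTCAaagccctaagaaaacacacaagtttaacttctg

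It was at 10.7, 11.1, 9.95 and 9.55 CPM in KO/aYAP hearts and at 17.6, 21.1, 26.6 and 22.5 in WT/aYAP hearts, again with no overlap. It fell by 1.01 (SE 0.15, adjusted p = 0.0215), while KO hearts were higher by 0.68 in the GFP contrast (interaction adjusted p = 4.36e-04).

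Scd2, on chromosome 19 (chr19:44293674-44306864, plus strand), encodes a stearoyl-CoA desaturase, an enzyme that makes monounsaturated fatty acids. KO/aYAP hearts held 62.9, 64.4, 75.03 and 72.6 CPM and WT/aYAP hearts 115, 137, 121 and 101. The groups did not overlap, and the gene fell by 0.77 (SE 0.13, adjusted p = 0.0357), against a difference of 0.07 with GFP (interaction adjusted p = 0.0104). It was not called without the mean-variance trend (adjusted p = 0.0682). Its paralogs Scd1 and Scd4, looked up after the values of Scd2 were seen, had differences of 0.46 and 0.59 in the other direction and were not called.

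Col5a3, on chromosome 9 (chr9:20770050-20815067, minus strand), encodes a chain of type V collagen, a minor fibrillar collagen, and was the called gene that was higher in KO. It was at 61.2, 51.5, 52.2 and 67.3 CPM in KO/aYAP hearts and at 39.2, 37.5, 33.0 and 38.9 in WT/aYAP hearts, with no overlap. It rose by 0.62 (SE 0.10, adjusted p = 0.0357), against -0.17 with GFP (interaction adjusted p = 0.00437). It was not called when the 8 aYAP libraries were fitted alone (adjusted p = 0.0566), without the mean-variance trend (0.0682) or after quantile normalization (0.0604).

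**Figure D3:**
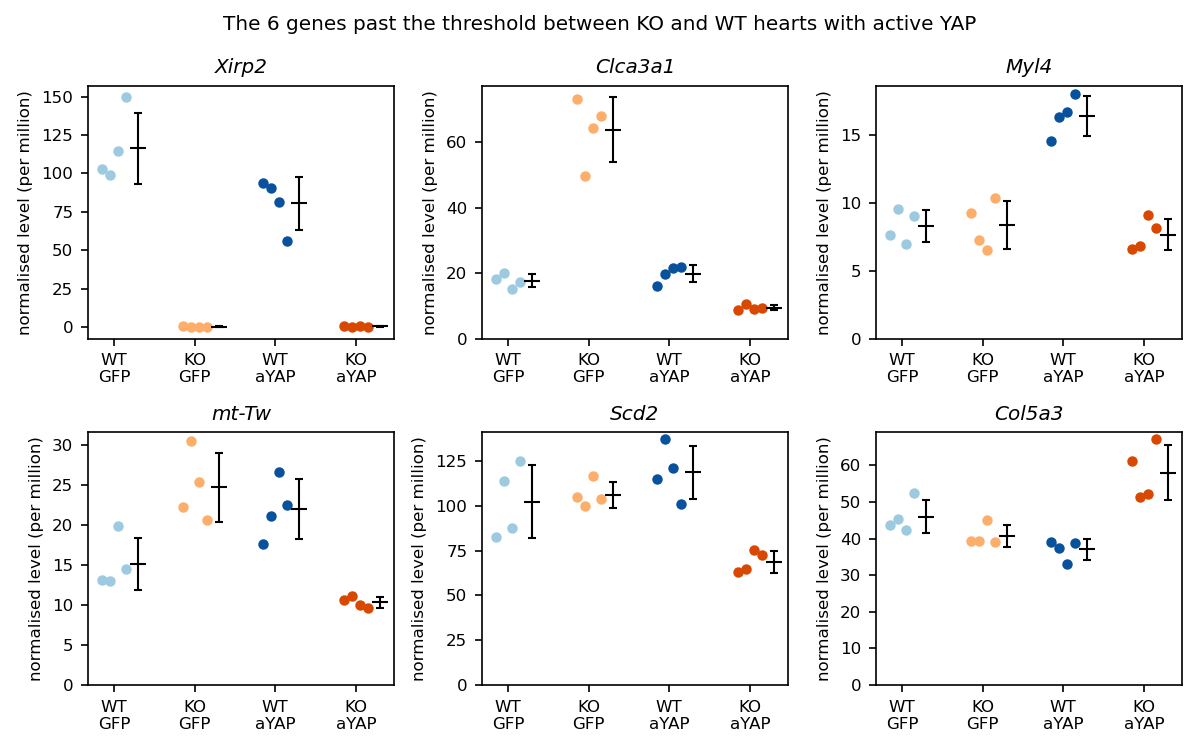
Levels of the 6 called genes in CPM in each of the 16 injected hearts, in 4 groups. Points are hearts and bars give the mean ± SD of 4 hearts. Clca3a1 is highest in KO/GFP (49.8 to 73.2 CPM), Myl4, mt-Tw and Scd2 are each lower in all 4 KO/aYAP hearts than in all 4 WT/aYAP hearts, and Col5a3 is higher.

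The 5 calls other than Xirp2 depended on the set of libraries. Leaving out 1 aYAP heart at a time gave 2 to 8 called genes, and Xirp2 and Clca3a1 were called each time. Of these 8 fits, Myl4 lost its call in 5, Scd2 in 6, and mt-Tw and Col5a3 in 7 each, with differences of -1.09 to -0.95 for Myl4, -1.10 to -0.91 for mt-Tw, -0.85 to -0.70 for Scd2 and 0.55 to 0.68 for Col5a3. A fit of the 8 aYAP libraries alone called 15 genes, 5 of them among the 6, and a fit with a separate precision for each group called 33, including all 6. DESeq2, a count model fitted to reads recovered from the CPM, called 67 genes, including all 6 and, of the genes named here, Tead2, Slc35e2, Tmem267, Errfi1, Ankfy1, Kcnj5, Pla2g5 and Mapt. In the rest of the text, called refers to the limma fit of 16 libraries unless another is named.

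Beyond the called genes, those named next fill the called genes up to 10 in each direction, by fold change among uncalled genes with no overlap and a mean of at least 5 CPM. Nfix, a nuclear factor I transcription factor, was at 117, 119, 127 and 188 CPM in KO/aYAP hearts and at 112, 26.0, 24.4 and 21.1 in WT/aYAP hearts (difference 1.91, adjusted p = 0.286). WT replicate 1 stood near the KO hearts. Gas7, a growth-arrest gene known from neurons, was at 5.53, 4.50, 24.6 and 22.9 CPM against 3.02, 2.95, 2.87 and 3.02 (difference 1.62), so KO replicates 3 and 4 carried most of it. Samd8, a sphingomyelin synthase relative, held 25.9, 26.2, 25.3 and 26.0 CPM in KO hearts and 24.5, 22.9, 2.49 and 2.63 in WT hearts (difference 1.52), so WT replicates 3 and 4 carried the difference.

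Ankfy1, an endosomal Rab5 effector, was at 46.5, 33.7, 40.6 and 41.8 CPM in KO/aYAP and at 22.2, 13.7, 14.4 and 18.7 in WT/aYAP, a difference of 1.21 that was not called (adjusted p = 0.228). Ankfy1 and 2610001J05Rik were called when the 8 aYAP libraries were fitted alone (limma, adjusted p = 0.0231 for each). The endoplasmic reticulum chaperone gene Hspa5 was at 395, 195, 186 and 234 CPM against 166, 115, 117 and 90.2 (difference 1.01). The other genes higher in KO by this rule were 2610001J05Rik at 1.11, the tau gene Mapt at 1.00, which was 0.61 without KO replicate 1, the phospholipid acyltransferase gene Lpcat1 at 0.99 and the secreted phospholipase gene Pla2g5 at 0.97.

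On the lower side there were 5 such genes. The complement gene C3 was at 1.01, 0.993, 2.92 and 3.95 CPM in KO/aYAP hearts and at 7.54, 6.93, 11.4 and 5.58 in WT/aYAP hearts (difference -1.54, not called). With GFP the KO hearts held more C3, by 2.86, and the interaction was called (adjusted p = 0.046). The other 4 were Gm13054 at -1.44, which lies antisense to Nppa over 989 bases, the nucleotide-sugar transporter relative Slc35e2 at -1.38, Tmem267 at -1.18 and the pseudogene Scp2-ps2 at -1.11, which was -0.67 without KO replicate 3. Slc35e2 overlaps Gm16023 on the other strand. The libraries were strand-specific, but whether counting used the strand was not given, so reads of these overlapping pairs may be shared.

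The genes that differed between genotypes without YAP were then followed into the aYAP contrast. Of the 1993 genes called with GFP, 921 (46.2%) kept their direction with aYAP and 81 had an unadjusted p under 0.05 in the same direction against 194 in the opposite one. Of these genes 3 were called with aYAP, where 0.0411% of all genes were: Xirp2 in the same direction, and Clca3a1 and mt-Tw in the opposite one. Their median change, signed by the direction under GFP, was 0.68 there and -0.02 with aYAP. Because these genes were chosen for their difference with GFP, a smaller size elsewhere is partly fixed by the choice. Of the 988 tested genes called in uninjected hearts, 553 (56.0%) kept their direction, 2 were called, Xirp2 in the same direction and Clca3a1 in the opposite one, and the signed median was 0.85 there and 0.03 with aYAP.

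Among the largest differences of the GFP contrast, Xirp2 apart, the genes below differed by less than 1 on the log2 scale with aYAP, while C3, whose groups overlapped with GFP, went from 2.86 to -1.54. Hmcn2, a basement membrane protein of the hemicentin family, was lower by 3.51 in KO/GFP and was at 51.2 ± 8.40 CPM in KO/aYAP against 29.4 ± 4.09 in WT/aYAP, a difference of 0.78. Hif3a, a hypoxia-inducible factor subunit, was higher by 3.18 with GFP and differed by -0.13 with aYAP, at 1.36 ± 0.25 and 1.64 ± 0.68 CPM. The macrophage chemokine receptor gene Cx3cr1 was lower by 2.94 with GFP and differed by -0.05 with aYAP, at 10.1 ± 1.71 and 10.5 ± 1.59 CPM. The steroid sulfate transporter gene Slc10a6, the peptide transporter gene Slc15a2 and the antibody heavy-chain gene Ighm, which differed by 3.18, 2.86 and -2.41 with GFP, differed by 0.10, 0.14 and -0.0098 with aYAP. The nuclear receptor gene Nr4a3 and the transcription factor gene Zbtb16 went from -2.65 and 2.84 to 0.20 and 0.60. Without 1 heart at a time Nr4a3 ran from -0.14 to 0.50 and Zbtb16 from 0.18 to 1.08, and the small values of Hif3a, Cx3cr1, Slc10a6, Slc15a2 and Ighm stayed within 0.37 of 0.

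Cell-cycle genes are a main target of YAP, and none was called with aYAP. Of 48 mitosis, spindle and kinetochore genes tested, 46 were lower in KO/aYAP, 1 had an unadjusted p under 0.05 (11.1% of all genes) and 10 did not overlap (9.23% of all genes), all lower. Their median was -0.21, against -1.26 with GFP, where 45 were called lower (13.7% of all genes were called in either direction), and -1.47 in uninjected hearts. The interaction was called for 6 of the 48, and for 7.56% of all genes. Among them Aurkb, the chromosomal passenger kinase gene, differed by -0.45, the condensin gene Smc4 by -0.45 and the kinetochore gene Spc25 by -0.46, or -0.28 without KO replicate 2.

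Of 41 DNA replication genes, 38 were lower, 10 of them without overlap (9.23% of all genes), with a median of -0.20 against -0.63 with GFP, where 17 were called lower (13.7% of all genes in either direction). The interaction was called for none of these 41 genes, and for 7.56% of all genes. The replication licensing gene Cdt1 differed by -0.67, the histone chaperone gene Chaf1b by -0.65 and the maintenance methylation gene Uhrf1 by -0.46. Over all tested genes the median was 0.0038. The 22 cyclins and CDK inhibitors had a median of -0.14 (-0.09 without KO replicate 1). Of these, Ccne1, which drives entry into S phase, differed by -0.67, and the CDK inhibitor gene Cdkn1a by 0.41. The cyclin D gene Ccnd3 differed by -0.47, or -0.80 without WT replicate 3 and -0.22 without WT replicate 4.

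**Figure D4:**
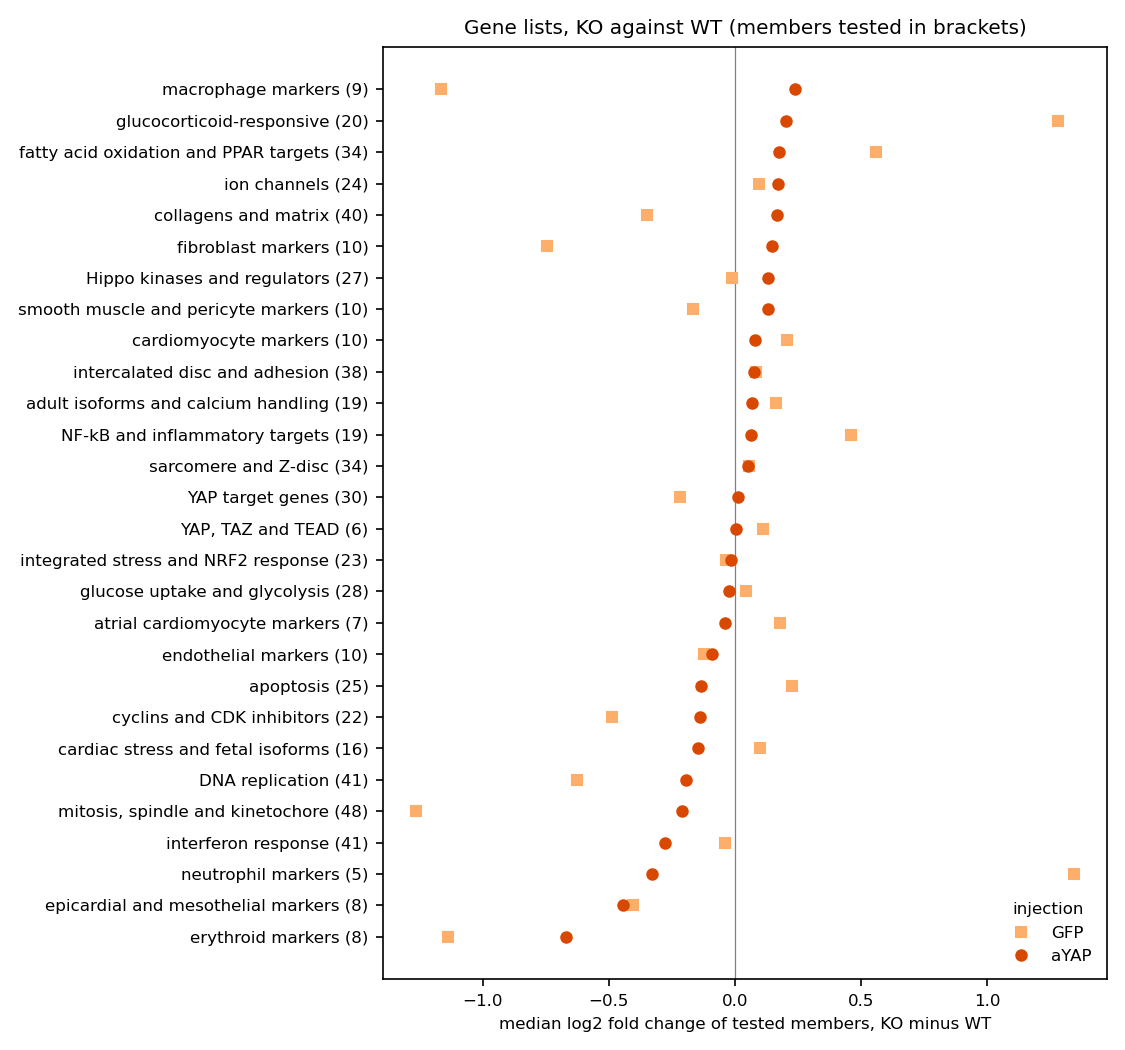
Median log2 fold change (KO minus WT, x axis) of each gene list with at least 5 tested genes, sex-linked genes left out, with aYAP (circles) and with GFP (squares). The mitosis list lies at -0.21 with aYAP and at -1.26 with GFP, and the erythroid list at -0.67 and -1.14.

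Members of the Hippo pathway were compared directly, since both arms received YAP. Of 27 Hippo kinases and regulators, 21 were higher in KO/aYAP, 5 with an unadjusted p under 0.05 (11.1% of all genes, in either direction), and 6 lower, 1 with such a p. None was called, and the median was 0.13, or 0.08 without WT replicate 1. The upstream kinase gene Taok3 differed by 0.47 and Stk3, which encodes MST2, by -0.30, or -0.19 without WT replicate 2. The LATS co-activator gene Mob1a had a difference of 0.35 that turned to -0.0844 without WT replicate 4. Tead2, a DNA-binding partner of YAP, was at 18.5, 17.9, 16.6 and 19.3 CPM in KO/aYAP and at 29.4, 26.8, 33.5 and 25.2 in WT/aYAP. The groups did not overlap, but the difference of -0.63 was not called (adjusted p = 0.135). It was called with separate precision for each group (adjusted p = 0.033) and by DESeq2 (adjusted p = 0.00317). Tead1 was at 40.4, 79.0, 157 and 201 CPM in KO/aYAP and at 178, 10.5, 43.2 and 13.7 in WT/aYAP. Its groups overlapped, and the difference of 1.58 (adjusted p = 0.536) ran from 1.06 without WT replicate 2 to 2.38 without WT replicate 1. The 30 YAP target genes were divided, 16 higher and 14 lower, with a median of 0.01 that ran from -0.02 without KO replicate 4 to 0.10 without KO replicate 2. Ctgf, a matricellular target, was at 95.8, 76.8, 205 and 167 CPM in KO/aYAP and at 90.1, 91.7, 78.8 and 93.8 in WT/aYAP. KO replicates 3 and 4 carried its difference of 0.51, which was 0.27 without KO replicate 3. The adaptor gene Sh2b3 differed by -0.61 and the tubulin-binding gene Stmn1 by -0.52.

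Among the genes of the muscle itself, cardiomyocyte markers differed little. Their summed level was 58820 to 63020 CPM in KO/aYAP and 52800 to 68950 in WT/aYAP, with a median difference of 0.08 over 10 genes (0.03 without WT replicate 4). Of 16 stress and fetal isoform genes, 12 were lower in KO, 1 of them called (Myl4, where 0.0411% of all genes were called), with a median of -0.15, or -0.32 without KO replicate 3. Nppa, the atrial natriuretic peptide gene, was at 28.1, 65.7, 163 and 76.9 CPM in KO/aYAP hearts and at 181, 169, 159 and 231 in WT/aYAP hearts. KO replicate 3 lay within the WT range, and the difference of -1.38 was not called (adjusted p = 0.29), although the interaction was (-2.38, adjusted p = 0.0262). The skeletal actin gene Acta1 differed by -0.65, or -0.37 without WT replicate 1, and the slow troponin T gene Tnnt1 by -0.57. Both Myl4 and Nppa are atrial markers. The other 5 atrial markers tested summed to 106 to 127 CPM in KO/aYAP and 95.9 to 124 in WT/aYAP, with a median difference of -0.01 and none at an unadjusted p under 0.05.

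No gene of the ion channel, calcium-handling or intercalated disc lists was called, and Xirp2 itself is not in these lists. Of 24 ion channel genes, 19 were higher in KO/aYAP, 6 with an unadjusted p under 0.05 (11.1% of all genes, in either direction). The other 5 were lower, 1 with such a p, and the median of the list was 0.17. The potassium channel gene Kcnj5 was at 64.6 ± 13.9 CPM in KO/aYAP and 35.8 ± 6.91 in WT/aYAP (difference 0.83), and the pacemaker channel gene Hcn2 differed by 0.53. The interaction was called for Hcn2 (1.17, adjusted p = 0.00893). Of 19 adult isoform and calcium-handling genes, 12 were higher and 7 lower, with a median of 0.07 (0.04 without WT replicate 4) and values from -0.30 to 0.53. The sarcoplasmic reticulum calcium pump gene Atp2a2 was at 0.53, the junctophilin gene Jph2 at 0.30, and the calcium buffer gene Casq2 at 0.38, or 0.20 without WT replicate 3 and 0.65 without WT replicate 1. Of 38 intercalated disc and adhesion genes, the compartment of Xinβ itself, 23 were higher, 7 with an unadjusted p under 0.05 (11.1% of all genes, in either direction). The other 15 were lower, 1 with such a p. The median was 0.07 (0.14 without WT replicate 1), with values from -0.33 to 0.43. The desmosomal cadherin gene Dsg2 differed by 0.39, the Z-disc gene Csrp3 by 0.43 and the ankyrin gene Ank3 by 0.36, or 0.20 without WT replicate 4. The 34 sarcomere genes had a median of 0.05, which was 0 without KO replicate 3.

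No fuel-use gene was called. Of 34 fatty acid oxidation and PPAR target genes, 30 were higher in KO/aYAP, 8 with an unadjusted p under 0.05 (11.1% of all genes, in either direction). The other 4 were lower, 1 with such a p. Only 2 genes of the list did not overlap, both higher (9.23% of all genes). The median was 0.18 against 0.56 with GFP. Pdk4, which diverts pyruvate from oxidation, was at 1333, 1397, 355 and 714 CPM in KO/aYAP and at 303, 519, 402 and 329 in WT/aYAP, a difference of 1.12. KO replicate 3 lay within the WT range, so these groups overlapped. The lipase inhibitor gene Angptl4 differed by 0.48, or 0.17 without WT replicate 2. The 28 glycolysis genes had a median of -0.03 (-0.06 without WT replicate 4), with the aldolase gene Aldoc at -0.65 and the lactate transporter genes Slc16a3 at -0.56 and Slc16a1 at 0.42.

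Of 20 glucocorticoid-responsive genes, 16 were higher, with a median of 0.20 against 1.28 with GFP, and the EGFR inhibitor gene Errfi1 at 0.62. The 23 integrated stress and NRF2 genes had a median of -0.02, which was 0.075 without KO replicate 1. Of 25 apoptosis genes, 17 were lower, with a median of -0.13 (-0.09 without WT replicate 4). The caspase gene Casp9 differed by 0.78 in the other direction, or 0.28 without WT replicate 4, and the BH3-only gene Bcl2l11 by -0.59.

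Interferon response genes were lower in KO/aYAP in 36 of 41 cases, with a median of -0.28. Only 1 of these had an unadjusted p under 0.05, where 11.1% of all genes did, and 5 did not overlap, where 9.23% of all genes did not. Their summed level was 487 to 580 CPM in KO/aYAP and 540 to 720 in WT/aYAP. Rtp4 differed by -0.92, the guanylate-binding protein gene Gbp3 by -0.73 and Ifi27l2a by -0.72. The median was -0.04 with GFP and 0.77 in uninjected hearts, where KO was the higher genotype. The 19 NF-kB and inflammatory targets had a median of 0.06, which was -0.01 without WT replicate 1.

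Collagen and matrix genes lay on the higher side with aYAP and on the lower side with GFP. Of 40 genes 29 were higher in KO/aYAP, 6 with an unadjusted p under 0.05 (11.1% of all genes, in either direction) and 5 not overlapping (9.23% of all genes). The median was 0.17 (0.10 without KO replicate 4) against -0.35 with GFP. The interaction was called for 15 of the 40, and for 7.56% of all genes. The network collagen gene Col8a1 differed by 0.67 and the microfibril gene Fbn1 by 0.50. Of 10 fibroblast markers, 9 were higher, with a median of 0.15 (0.23 without KO replicate 2) against -0.75 with GFP and a summed level of 3210 to 3842 CPM in KO/aYAP and 3115 to 3433 in WT/aYAP. Whether these cells account for the matrix genes was not tested, and in tissue RNA fewer cells of a type and less RNA per cell cannot be told apart.

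All 8 erythroid genes, which mark red blood cells and their precursors, were lower in KO/aYAP, with a median of -0.67, none called. Of these, 5 had an unadjusted p under 0.05 (11.1% of all genes, in either direction) and 6 did not overlap (9.23% of all genes). They summed to 1870 to 2065 CPM in KO/aYAP and 2673 to 3894 in WT/aYAP, which did not overlap. The globin gene Hba-a2 was at 454, 492, 497 and 469 CPM in KO hearts and at 687, 904, 667 and 955 in WT hearts, a difference of -0.73, and its near-identical copy Hba-a1, between which reads could be divided unevenly, differed by -0.71. The medians were -1.14 with GFP and -0.34 in uninjected hearts, so KO was the lower genotype in each.

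All 8 epicardial and mesothelial genes, which mark the outer lining of the heart, were also lower. Their median was -0.44, with 3 at an unadjusted p under 0.05 (11.1% of all genes, in either direction), 4 without overlap (9.23% of all genes) and none called. Their summed levels were 93.9 to 102 CPM in KO/aYAP and 113 to 126 in WT/aYAP. Mesothelin, Msln, was at 0.958, 0.701, 1.54 and 3.3 CPM in KO hearts and at 4.63, 5.79, 6.57 and 5.45 in WT hearts (difference -1.42). Upk3b differed by -1.27 and Krt8 by -0.80. Without WT/aYAP replicates 3 and 4 the median was -0.23, and leaving out 1 heart at a time gave -0.60 to -0.31.

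Macrophage markers were higher in 8 of 9 cases, with a median of 0.24 (0.12 without KO replicate 3) against -1.16 with GFP, and summed to 108 to 131 CPM in KO/aYAP and 98.7 to 103 in WT/aYAP. Adgre1, the F4/80 antigen gene, differed by 0.60, Lyve1 by 0.38 and the mannose receptor gene Mrc1 by 0.29. The 5 neutrophil markers had a median of -0.33 (-0.17 without KO replicate 1) against 1.34 with GFP, and their sums overlapped, at 4.12 to 14.2 and 7.97 to 12.5 CPM. Endothelial markers had a median of -0.09 (-0.14 without WT replicate 1) and smooth muscle and pericyte markers 0.13. Fewer than 5 genes were tested for the skeletal muscle, lymphocyte, adipocyte and Schwann cell lists, whose medians were -0.41, -0.10, 0.17 and -0.09. Without 1 heart at a time each moved by over 1.5 times, to -0.26 without KO replicate 2, -0.06 without WT replicate 3, 0.10 without WT replicate 4 and 0.087 without KO replicate 2.

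The 17 other mitochondrial tRNA genes tested were examined after mt-Tw had been seen. Of these, 16 were lower in KO/aYAP, 12 with an unadjusted p under 0.05 (11.1% of all genes, in either direction) and 9 without overlap (9.23% of all genes), with a median of -0.56 and a range of -0.93 to 0.08. They summed to 803 to 868 CPM in KO/aYAP and 936 to 1261 in WT/aYAP. With GFP, 14 of them were higher in KO, with a median of 0.41. The 13 mitochondrial protein-coding genes were all lower in KO/aYAP by smaller amounts, with a median of -0.23 and none at an unadjusted p under 0.05, and mt-Nd2, which overlaps mt-Tw, differed by -0.13. All mitochondrial genes together made up 13.6 to 16.5% of reads in KO/aYAP and 14.6 to 19.4% in WT/aYAP.

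**Figure D5:**
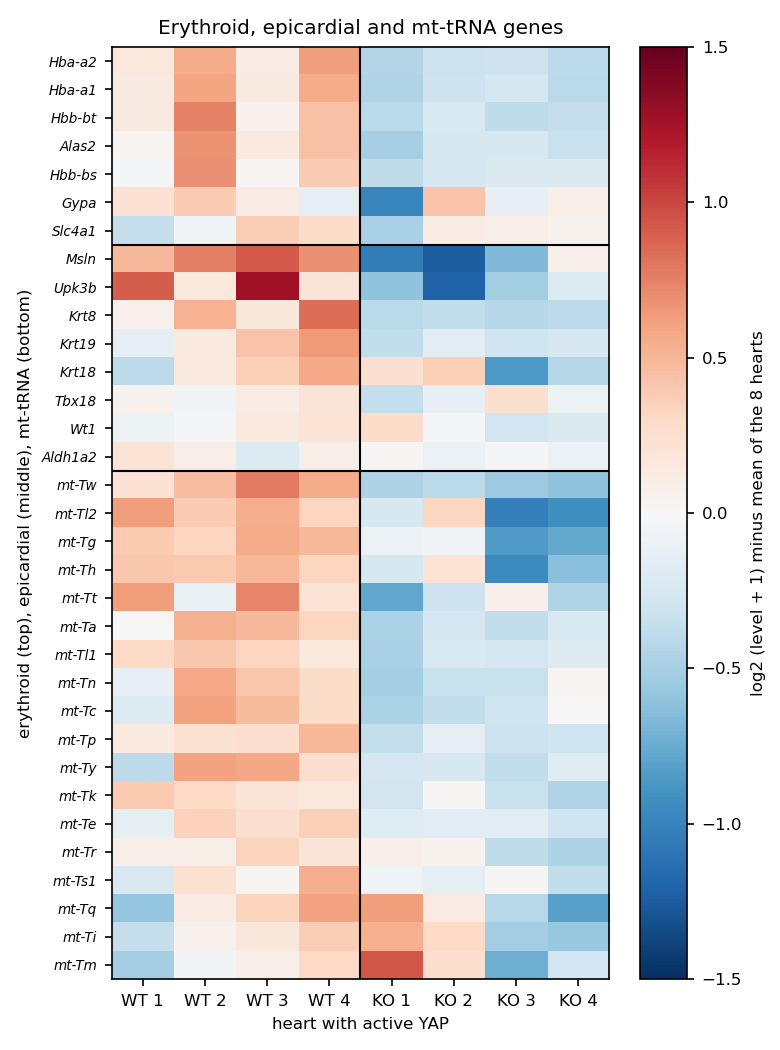
Erythroid (7 of the 8 tested), epicardial and mitochondrial tRNA genes by heart, as log2(CPM + 1) minus the gene's mean over the 8 aYAP hearts, with the 4 WT hearts on the left and the 4 KO hearts on the right. All erythroid and epicardial genes drawn and 17 of 18 tRNA genes have a lower mean in the KO hearts.

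Genes near the deleted locus were examined because a targeted allele carries flanking chromosome from the stem-cell strain. Within 20 Mb of Xirp2, 152 other genes were tested, of which none was called, 17 had an unadjusted p under 0.05 (11.2%) and 17 did not overlap (11.2%). Both shares were close to those of all genes, 11.1% and 9.23%. Log2 fold changes there ran from -0.58 to 0.63. Within 5 Mb, 2 of 41 genes had an unadjusted p under 0.05 (4.88%).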

How the data were processed

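RNA-seq of 24 heart samples (strand-specific, poly(A)-selected, paired 150-base reads for injected hearts) was deposited as 2 tables, one for 16 injected and one for 8 uninjected hearts. The deposited values are a normalized signal: the authors trimmed reads (cutadapt 2.3), aligned them to GRCm38 (HISAT2 2.1.0), derived gene counts from transcript coverage with StringTie 1.3.4 and its prepDE script, and scaled to CPM with edgeR 3.26.1. Column sums differ between libraries, so the CPM were read as relative to TMM-scaled library sizes, not the plain CPM assumed in the plan. Whole reads were recovered for 100% of values (tolerance 0.01).

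Genes above 1 CPM in at least 8 of 16 injected libraries (14597 of 15327) were fitted as log2(CPM + 1) in limma 3.58.1 (trend, Benjamini-Hochberg) with 4 groups. Alternatives included DESeq2 1.42.0 and edgeR 4.0.16, both fitted to the recovered reads (R 4.3.3). Figures used matplotlib 3.10.9 in Python 3.11.15. The fit was tested on simulated data. Replicate numbers did not pair hearts: own-number correlations of residuals were -0.0517, 0.0203, 0.0192 and -0.0586.

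Named were called genes, filled up to 10 per direction by the largest uncalled differences without overlap at a mean of at least 5 CPM, the top 3 per list (the plan allowed 4), the largest changes of the other contrasts, Xirp1 and Yap1. Not every gene so named is given in the text, and 4 are not reported here. The members and lists were chosen with earlier results of these data known. Principal components were compared by exact permutation tests. Gene names and positions come from GENCODE M21.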

Additional observations from a re-analysis of the deposited data

Results flagged for a closer look

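For 38 of 107 named genes the genotype difference with aYAP differed from that with GFP by the interaction test of the limma fit, which called 7.56% of all genes. The values here are the KO minus WT difference with aYAP minus that with GFP, on the log2 scale. Many of these genes were named for their size in one of the contrasts that enter the test, so their number is partly fixed by the choice. Of the called genes, Clca3a1 was at -2.78, Myl4 at -1.01, mt-Tw at -1.68, Scd2 at -0.85 and Col5a3 at 0.79.

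Matrix and wall-cell genes were on the positive side, with Hmcn2 at 4.28, Fbn1 at 1.27, Lum at 1.00, Col1a2 at 0.92, Acta2 at 1.07 and Rgs5 at 0.60. The macrophage genes Cx3cr1 and Adgre1 were at 2.88 and 2.02 and Ighm at 2.40. Neutrophil and inflammatory genes were on the negative side, with C3 at -4.40, S100a8 at -2.75, Ltf at -1.67, Ngp at -1.51, Ifi27l2a at -1.70 and the chemokine gene Ccl2 at -1.41.

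Metabolic and transport genes included Hif3a at -3.31, Slc10a6 at -3.08, Slc15a2 at -2.73 and the fatty acid binding protein gene Fabp4 at -1.03. Among heart muscle and signalling genes, Nppa was at -2.38, its antisense neighbour Gm13054 at -2.49, Tnnt2 at -0.88, Hcn2 at 1.17, Taok3 at 0.85, Bcl2l11 at -1.22 and Nr4a3 at 2.85. The rest were Gas7 at 3.37, Mapt at 2.22, Lpcat1 at 2.20, Ankfy1 at 1.99, 2610001J05Rik at 1.51, Slc35e2 at -1.76 and Tmem267 at -1.37.

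A single heart stood far from the other 3 of its group in 16 cases among the 2 aYAP groups of each of the 107 named genes, where chance alone marks about 1 in 20. In WT/aYAP these were replicate 1 for Nfix (112 CPM), Cdt1 (17.9 CPM) and Hmcn2 (23.3 CPM), and replicate 4 for Fabp4 (1147 CPM), Casp9 (2.36 CPM) and Mob1a (15.2 CPM). In KO/aYAP they were replicate 1 for Mapt (37.0 CPM), replicate 2 for Lum (115 CPM) and Col1a2 (768 CPM), and replicate 3 for 2610001J05Rik (29.1 CPM), Chaf1b (9.84 CPM), Dsg2 (71.6 CPM) and Mrc1 (17.4 CPM). KO/aYAP replicate 4 stood apart for Nfix (188 CPM), Tmem267 (11.5 CPM) and Aldoc (2.92 CPM).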

How the results depend on the processing

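The count of called genes moved with the libraries and the model. Against 6 genes, the 8 aYAP libraries alone gave 15 in limma and 14 in edgeR, the latter added after seeing the data, precision weights per group gave 33, DESeq2 on recovered reads 67, and leaving out WT/aYAP replicates 3 and 4 gave 1. Leaving out 1 heart gave 2 to 8 (2 without KO replicate 1, KO replicate 2 or WT replicate 2, 3 without WT replicate 3 or 4). Changing the trend, pseudocount, filter or scaling, or using edgeR on 16 libraries, kept the count between 4 and 7, and the all-gene median shifted by less than 0.1. A replicate block, although the numbers did not pair the hearts, called 4 genes and lost Scd2 (adjusted p = 0.104) and Col5a3 (adjusted p = 0.0999), and it gave 707 interaction calls against 1104. Without 1 heart the interaction called 631 to 1049 genes. The first principal component gave differences of 25.9 to 33.0 without 1 heart, past the threshold except without WT replicate 2 or 4 (exact permutation test, p = 0.0571 for each).

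Without WT/aYAP replicates 3 and 4 the epicardial median was -0.23, and without 1 heart it ran from -0.60 to -0.31. The integrated stress median ran from -0.05 to 0.075 without 1 heart, the glycolysis median was -0.10 after quantile normalization, and the Xin family median was -3.74 at a pseudocount of 0.1. Genes whose differences changed sign were Yap1 (-0.0050) and Ighm (0.026) after quantile normalization, Ighm with an Xist covariate (0.019), and Xist, at -1.51 in the reported fit, in edgeR (0.50), DESeq2 (0.50) and edgeR on 8 libraries (0.49). Without WT/aYAP replicates 3 and 4 the values were 0.0645 for Xist, 0.0753 for Ighm, 0.0081 for Asns, -0.27 for Ttn, -0.12 for Mob1a, -0.0644 for Gclm, -0.18 for Nr4a3 and 0.0363 for Hif3a. Without 1 heart, S100a8 ran from -0.72 to 0.010, Mob1a from -0.0844 to 0.73, Nr4a3 from -0.14 to 0.50, Cx3cr1 from -0.16 to 0.0315, Slc15a2 from -0.16 to 0.37, Slc10a6 from -0.0917 to 0.30 and Ighm from -0.13 to 0.11. Causes were not tested.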

Other observations

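A pair of neighbouring genes on chromosome 6, chosen after their values were seen, differed evenly between the genotypes under active YAP. Mest, an imprinted gene expressed from the paternal copy in growing tissue, was at 189, 197, 224 and 210 CPM in KO/aYAP hearts and at 465, 376, 354 and 395 in WT/aYAP hearts. Copg2, which encodes a coat protein of transport vesicles, was at 123, 130, 137 and 136 CPM in KO hearts and at 262, 220, 200 and 238 in WT hearts. Neither group pair overlapped. The differences were -0.95 for Mest (limma with all injected libraries, adjusted p = 0.286) and -0.80 for Copg2 (adjusted p = 0.231), and both were called when the 8 aYAP libraries were fitted alone. The genes lie on opposite strands and share 912 bases at their ends, so part of the reads of each may belong to the other. With GFP, Mest was at 190 ± 101 CPM in KO and 281 ± 43.4 in WT hearts, and in uninjected hearts it was lower in KO by a larger amount that was called (-1.49, limma adjusted p = 0.0131), while Copg2 differed there by -0.18 (adjusted p = 0.387).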
